A study of Ginkgo biloba with 9 samples.

Results

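In leaves of Ginkgo biloba, 110 genes stood at similar levels at the control and moderate planting densities and at a much lower level at the high density. They are described here as the genes lowered at high density, and each is called a member. The members were taken from 19692 genes that the rule could choose from, out of 41309 gene identifiers in the authors' deposited table. A gene was a member if its mean of log2(FPKM + 1) was at least 1 lower at the high density than at each of the other densities, if those other densities differed by less than 0.4, and if all 3 high-density libraries lay below all 6 others. FPKM count fragments relative to gene length and to library size, so they can be compared between genes. The members were thus chosen by their FPKM in all 9 libraries. Those values are the ones described below, and no test of the differences among densities is independent of the choice.

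Leaves came from 2-year-old trees of the cultivar Fozhi in a nursery for leaf harvest. The groups, with 3 libraries each, were CK, the control at 20 plants per square metre, MD, moderate density at 40, and HD, high density at 80. All trees shared the cultivar, and no other treatment is named in the labels. Whether a density's libraries were made from different trees, plots or RNA pools is not stated in the labels, so p-values measure the spread among libraries alone, which may be technical. Recovered read numbers were 14697420 to 22435277 in genes per library.

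Ginkgo is a seed plant whose leaves are harvested for extracts rich in flavonoid glycosides and terpene trilactones. Crowded plants shade each other and compete for water and nutrients. Leaves sense shade largely through phytochromes, photoreceptors that respond to the ratio of red to far-red light, and many plants alter growth and metabolism when that ratio drops. Which of the members belong to such pathways is not known here, because the table does not pair its identifiers with gene names. For the same reason the tissue was not checked against leaf markers, 2 identifiers are named below, and the other members are given by their rank. Rank 1 is the member with the largest fall, where the fall of a gene is the smaller of CK minus HD and MD minus HD on the log2(FPKM + 1) scale.

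The member with the largest fall, Gb_19747, was close to silent at high density. Its level was 14.5, 17.3 and 17.1 FPKM in the CK libraries, 19.7, 18.5 and 21.7 FPKM in the MD libraries, and 0.510, 0.501 and 1.18 FPKM in the HD libraries. Every HD library was far below every other library. Group means were 16.3 ± 1.54 FPKM for CK, 20.0 ± 1.60 for MD and 0.730 ± 0.389 for HD (SD, n = 3 each). On the log2(FPKM + 1) scale, the log2 fold change was -3.34 for HD against CK (SE 0.142, limma adjusted p = 1.59e-08). For HD against MD it was -3.62 (SE 0.142, limma adjusted p = 1.45e-08). With HD values this low, the added 1 makes these changes smaller than the ratios of reads given below. These p-values are given as a description, since the gene was chosen for this pattern. MD and CK were not told apart for this gene (log2 fold change 0.28, SE 0.142, limma adjusted p = 0.149). The gene had 520 reads over the CK libraries, 538 over MD and 20 over HD. Corrected for library size, CK exceeded HD 23.1-fold (exact 95% interval 14.8 to 38.1) and MD exceeded HD 28.1-fold (18.0 to 46.4), intervals that cover counting error only. Its recovered length was 525 nt.

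The most abundant member was Gb_13335, which kept a high level at every density. It stood at 846, 868 and 851 FPKM in the CK libraries, at 700.2, 685 and 716 FPKM in MD, and at 285, 286 and 304 FPKM in HD. The 3 densities did not overlap, and the HD level of 292 ± 10.7 FPKM was 37.5% of the mean of CK and MD. The log2 fold change was -1.55 for HD against CK (SE 0.0314, limma adjusted p = 1.11e-10) and -1.26 for HD against MD (SE 0.0314, limma adjusted p = 4.68e-10). This gene was also lower in MD than in CK, by a log2 fold change of -0.29 (limma adjusted p = 4.23e-05), within the 0.4 that the rule allows. It ranked 55 among the members and alone carried 14677 reads over the HD libraries, the largest number of any member.

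**Figure D1:**
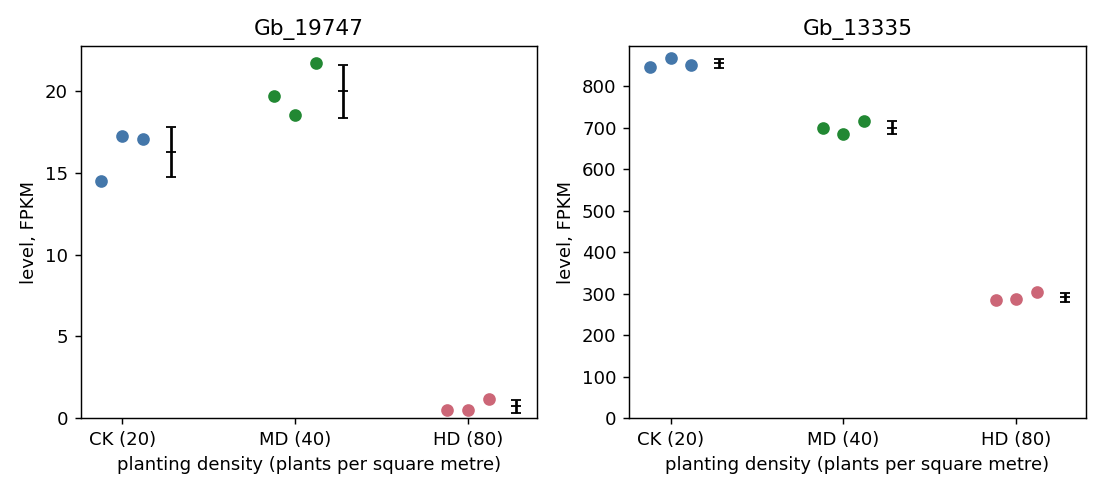
Level in FPKM (vertical axes, from 0) of Gb_19747 and Gb_13335 in each library at 20, 40 and 80 plants per square metre. Coloured points are single libraries, and black bars are the mean ± SD of 3 libraries. The HD libraries of Gb_19747 lie between 0.501 and 1.18 FPKM and those of Gb_13335 between 285 and 304 FPKM, below all libraries of the other densities.

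Over all members, the median of CK minus HD was 1.41 and the median of MD minus HD was 1.43 on the log2(FPKM + 1) scale, against -0.003 and -0.005 over the 19854 genes tested. The fall ranged from 1.004 to 3.34, with a median of 1.26 and quartiles of 1.12 and 1.60. It was at least 2 in 11 members, at least 1.5 in 38 and under 1.2 in 46, so the members were crowded towards the lower limit. As a share of the mean of CK and MD, the HD level had a median of 29.0% and ran from 3.08% to 44.2%. All 110 members were called lower in HD than in CK, against 26.6% of tested genes, and all 110 lower in HD than in MD, against 22.6% (limma, adjusted p under 0.05). Calls in both comparisons were made for 15.4% of tested genes. All 3 HD libraries lay below the 6 others in 17.9% of tested genes and, by the rule, in every member. These comparisons share the HD libraries, and the rule used both, so nothing is read from the members' counts.

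Between CK and MD, 25 members were called different, 13 higher in MD and 12 lower, against 36.7% of tested genes in either direction. The rule bounds this difference, so the lower share is not a result about the members. It does show that the label of a change at high density alone is approximate: the level in MD was not the same as in CK for these 25. The MD mean was above the CK mean in 56 members and below it in 54, and the median of MD minus CK was 0.005, from -0.40 to 0.40.

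**Figure D2:**
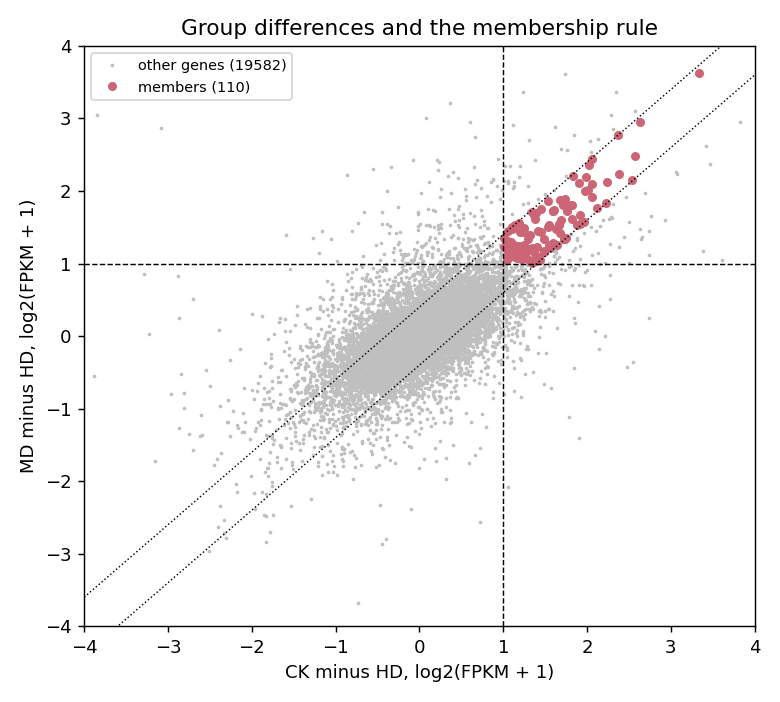
MD minus HD (vertical axis) against CK minus HD (horizontal axis), both as differences of group means of log2(FPKM + 1), for the 19692 genes the rule could choose from. Red points are the 110 members and grey points the other genes, with 4 genes outside the axes. Dashed lines mark the limits of 1 and dotted lines a difference of 0.4 between MD and CK. The members lie above both limits and between the dotted lines, most of them close to the limits. Grey points above both limits are genes with MD and CK at least 0.4 apart.

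Of the genes the rule could choose from, 203 were at least 1 lower in HD than in both other densities, on the log2(FPKM + 1) scale. The members are the 110 of these with MD and CK less than 0.4 apart. In 38 others MD was above CK by 0.4 or more, and in 55 it was below CK by as much. No gene that met these limits was lost to an overlap of libraries. The member nearest to each limit had a CK minus HD of 1.01, an MD minus HD of 1.004 and an absolute MD minus CK of 0.399. The genes just outside had 0.977, 0.997 and 0.401. A fall of 1 to under 1.1 was seen in 21 members, and 49 genes that met every other condition had a fall of 0.9 to under 1. The limits thus cut through a continuous range.

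Members of low, middle and high abundance were all present. The mean of CK and MD was under 5 FPKM in 29 members, from 5 to under 10 in 21, from 10 to under 100 in 53 and at least 100 in 7. The median over members of the mean FPKM of 9 libraries was 8.91, near the 10.7 of all tested genes. The members' value includes the HD libraries, which the rule requires to be low. In CK alone the median was 11.7 for members and 10.5 for all tested genes, and in MD alone 11.2 and 10.6. The 7 abundant members held 45.3% of the members' summed FPKM in CK and MD, and their HD levels were 20.4% to 43.6% of the mean of the other densities. Among them, the member of rank 8 fell most. It stood at 192, 201 and 196 FPKM in CK, at 248, 259 and 262 in MD, and at 44.0, 45.7 and 49.0 in HD. The member of rank 12 had a recovered length of 213 nt. It was at 123, 124 and 133 FPKM in CK, at 148, 135 and 156 in MD, and at 25.9, 32.4 and 36.3 in HD. In both genes every HD library was far below every other library.

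At the other end, 27 members had a mean under 1 FPKM in HD, and in 17 every HD library was under 1. All 110 were at 1 FPKM or more in every CK and MD library. No member was at 0 in all HD libraries, and 2 were at 0 in 1 HD library each. One of these, of rank 3, had 8.23, 5.22 and 5.89 FPKM in CK, 5.18, 6.14 and 6.35 in MD, and 0.470, 0 and 0.271 in HD, from 6, 0 and 3 reads. The other, of rank 9, had 2.64, 3.75 and 5.35 FPKM in CK, 5.21, 4.59 and 2.42 in MD, and 0.0976, 0.384 and 0 in HD, from 1, 4 and 0 reads. A library with 0 reads still allows up to 3. The lowest share of all was that of the member of rank 17, which kept 3.08% of its level elsewhere, with 4 reads over the HD libraries. The HD level of such genes is known only within wide counting error: 4 members had under 10 reads over the 3 HD libraries, and 24 had under 10 in at least 1 of them, while 64 had at least 100 over the 3.

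The summed level of the members changed little within a density. It was 3795, 3832 and 3776 FPKM in the CK libraries, 3772, 3688 and 3742 in MD, and 1253, 1239 and 1261 in HD. The means were 3801 ± 28.4 FPKM for CK, 3734 ± 42.6 for MD and 1251 ± 10.97 for HD (SD, n = 3). Without Gb_13335, the most abundant member, the sums were 2946 ± 19.8, 3034 ± 34.9 and 959 ± 7.72 FPKM, so the order of CK and MD turned while HD stayed far below both. The members took 0.371% ± 0.000842 of the reads in CK, 0.362% ± 0.00231 in MD and 0.129% ± 0.000954 in HD. The summed FPKM of all genes was itself lower in HD, at 996238 to 1001236, against 1082067 to 1097979 in the other libraries, and the part of this in the members' fall was not tested. Leaf RNA was measured in bulk, so fewer cells of a type and less RNA per cell cannot be told apart.

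**Figure D3:**
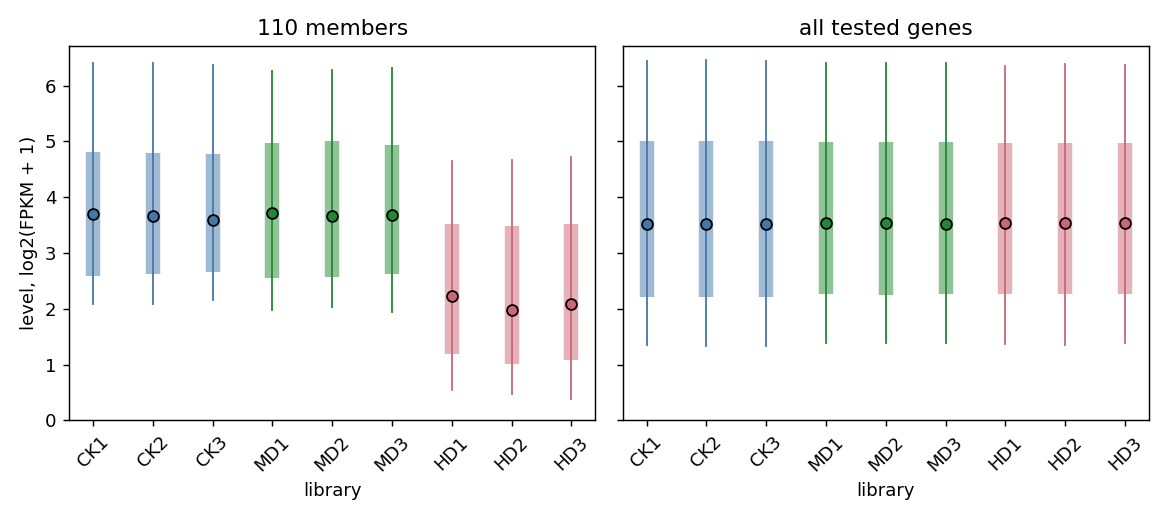
Level as log2(FPKM + 1) (vertical axis) in each library, for the 110 members on the left and all 19854 tested genes on the right. Points are medians, thick bars run between the quartiles and thin lines from the 10th to the 90th percentile over genes. The members' median is 3.59 to 3.72 in the CK and MD libraries and 1.98 to 2.23 in HD, while the median of all tested genes is level across libraries.

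The libraries of a density spread more for the members than for all tested genes in CK and HD, and about alike in MD. The demand that all HD libraries lie below all others itself favours a small spread. The SD of log2(FPKM + 1) over the 3 libraries had a median over members of 0.121 in CK, 0.0983 in MD and 0.158 in HD, against 0.0951, 0.0977 and 0.0974 over all tested genes. The members also had fewer reads in HD, 19961 to 23438 per library against 53504 to 83296 in the others, and the part of this in the larger SD was not tested. The lowest HD value of a member was in HD1 for 27 members, in HD2 for 38 and in HD3 for 45. The lowest value among the 6 other libraries was found in each of them for 16 to 23 members. The lowest of these 6 was a median of 2.26 times the highest HD library, at least 2 times in 80 members, and 1.36 times in the member with the narrowest gap.

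The rule was also applied to 8 libraries at a time, and the chosen genes were read in the library left out. That library took no part in the choice, but the libraries it was compared with did. As libraries of a density may be technical repeats, the reading describes their agreement alone and is no independent test of density. Without HD1, 114 genes were chosen, and 113 of them had an HD1 value below all CK and MD libraries. Without HD2 this held in HD2 for 120 of 121 genes, and without HD3 in HD3 for 107 of 107. Of all genes the rule could choose from, 26.6% to 26.8% had the left-out HD library below the 6 others. The median fall in the left-out library was 1.23 in HD1, 1.25 in HD2 and 1.34 in HD3, against 1.30, 1.27 and 1.28 in the libraries used for the choice. A fall of at least 1 was kept by 89, 88 and 87 genes. When a CK or MD library was left out, between 100 and 115 genes were chosen, and its value was above all 3 HD libraries in every one of them, except that without MD3 this held in MD3 for 113 of 115 genes. Of all genes the rule could choose from, 37.6% to 39.9% had the left-out CK or MD library above the HD libraries. The shares over all these genes carry no condition on the fall, so they are not a like base for the chosen genes.

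The lengths recovered for the members had a median of 937.5 nt, with quartiles of 618 and 1446 and a range of 96 to 3927 nt. The median over 19831 tested genes with a recovered length was 1152 nt. The same rule turned to the other densities or to the opposite direction gave classes with median lengths of 904.5 to 997.5 nt. These classes held 113 genes higher at HD, 74 lower at CK, 47 higher at CK, 45 lower at MD and 82 higher at MD, each against the other densities. The median fall of the members, 1.26, stood beside a median of 1.22 for the rises of the 113 genes, and a difference of at least 2 was reached by 11 of the members and 6 of those genes. In the 4 classes odd at CK or MD a difference of at least 2 was reached by 3 of 74 genes lower at CK, 5 of 47 higher at CK, 2 of 45 lower at MD and 9 of 82 higher at MD, so the members' share of 10% was within the range of these classes (4.05% to 10.98%). The largest difference was 3.34 among the members and 2.40 to 3.23 in the other 5 classes.

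A feature the rule did not use was the number in the gene identifier. Of the 110 members, 13 had a number directly next to that of another member, in 5 pairs and 1 run of 3 (6 runs in all). Of the 105 directly neighbouring numbers that belonged to genes the rule could choose from, counted once from each member, 14 belonged to members (13.3%), while members were 0.559% of the genes the rule could choose from. In the class of 113 genes higher at HD, 4 genes had such a neighbour, or 3.64% of links, against a share of 0.574%. In the classes odd at CK or MD, 0% to 8.89% of links were of this kind, the highest for the 45 genes lower at MD. Those 45 were only 0.229% of the genes the rule could choose from. The percentages of links thus do not rank the classes by themselves. The 93 genes that were at least 1 lower in HD than both other densities but were no members had 12 of 90 links among themselves (13.3%). Their share was 0.472%. For the 2998 genes called lower in HD than both, 20.6% of links were of this kind, against a share of 15.2%. The comparison of identifier numbers was chosen after the identifiers of the members had been seen. Whether neighbouring numbers are neighbours in the genome is not stated in the files, and near-identical gene copies, if any, could have shared reads in the authors' counting. The count of 13 was 8 without CK1, 8 without CK2 and 5 without CK3, where 100, 105 and 103 genes met the rule.

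The run of 3 held the members of rank 8, 10 and 37. The first is the abundant gene described above. The member of rank 10 was at 10.9 ± 1.78 FPKM for CK, 13.9 ± 1.804 for MD and 1.92 ± 0.270 for HD, and that of rank 37 at 8.25 ± 2.07, 11.2 ± 5.48 and 2.17 ± 0.522 (SD, n = 3). These last 2 genes had the same recovered length of 849 nt, and their values are uncertain if they are copies of each other. All of the run had a higher mean in MD than in CK, but only rank 8 was called different (limma adjusted p = 5.95e-05). Ranks 10 and 37 were not (limma adjusted p = 0.0719 and 0.403). The MD libraries of rank 37 were at 17.1, 6.23 and 10.4 FPKM, against 9.41, 9.49 and 5.86 in CK.

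Gb_19747 itself was close in number to the pair of rank 16 and 19, which were 4 and 3 numbers before it. The member of rank 16 was at 99.6 ± 6.72 FPKM for CK, 75.9 ± 1.505 for MD and 20.5 ± 1.52 for HD. The member of rank 19 was at 90.3 ± 5.96, 92.7 ± 1.76 and 25.7 ± 0.704 FPKM. Both were several times as abundant as Gb_19747 at CK. They also kept a larger share of their level at HD, which was likely in advance, since Gb_19747 was named for its largest fall. The members of rank 2 and 3 were also only 2 numbers apart. The member of rank 2 had 23.8, 24.4 and 25.5 FPKM in CK, 30.7, 34.6 and 27.7 in MD, and 3.27, 2.74 and 3.36 in HD. With numbers up to 5 apart, 18 members had another member nearby, 5 of the 11 with a fall of at least 2 and 13 of the other 99. Those 5 were of rank 1, 2, 3, 8 and 10. Ranks 2 and 3 are neighbours of each other, as are 8 and 10, so they do not count separately and the split is a description. In this wider window 4.49% of links were to members, who were 0.559% of the genes the rule could choose from. The other classes exceeded their shares too. Such links were 1.87% for the genes higher at HD, against a share of 0.574%. They were 2.16% for those lower at MD, against 0.229%, and 0.909% to 1.15% in the rest, against 0.239% to 0.416%. The genes with such a neighbour were 16.4% of the members and 4.26% to 8.89% of the other classes.

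**Figure D4:**
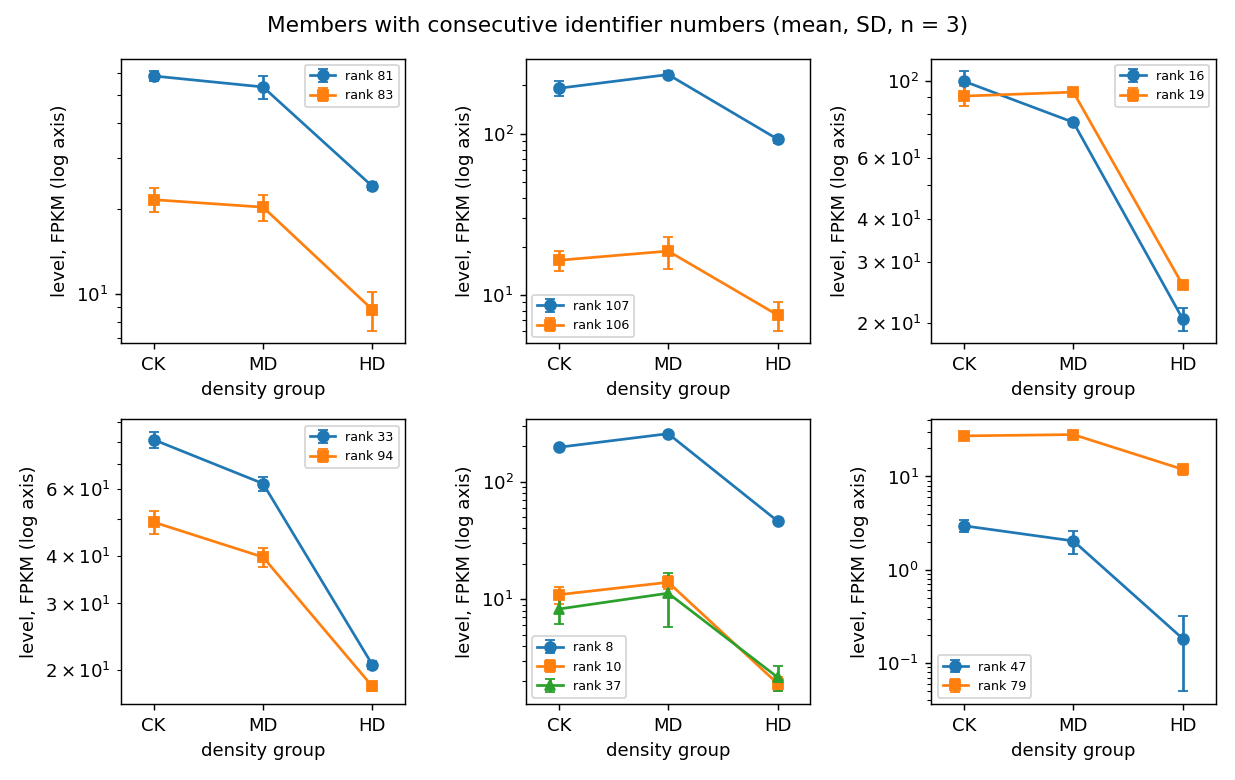
Level in FPKM (log axes) at CK, MD and HD for the 13 members with directly consecutive identifier numbers, 1 panel for each of the 6 runs. Points are means and bars the SD of 3 libraries, and each line is 1 gene with its rank by fall. Genes of a run differ in level, up to the 196 against 8.25 FPKM in CK in the run of 3, and in each the HD level is the lowest.

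The genes directly next in number to a member that were not members themselves lay near 0 in their median difference. There were 91 of them, with a median CK minus HD of 0.006 and a median MD minus HD of -0.003 on the log2(FPKM + 1) scale. Of these, 30 were called lower in HD than in CK (33.0%), 23 lower in HD than in MD (25.3%) and 19 lower than both (20.9%), beside the 26.6%, 22.6% and 15.4% of all tested genes (limma, adjusted p under 0.05). The difference between these shares was not tested.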

How the data were processed

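Per the file headers, the table that the authors deposited holds FPKM, 1 value for each gene in each library. CASAVA 1.8, TopHat2 and RSEM appear in the submitters' processing notes, with no roles. The sources used here give neither genome build nor annotation. Each of the 9 value columns matched 1 sample title, with 0 columns left over.

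Whole reads and gene lengths were computed from the step size of each gene's FPKM after scaling libraries to their relative depth. The reads came out whole within 0.001 reads in 100% of the 21602 genes above 0 in every library. Lengths of tested genes were multiples of 3 in 87.5%, and whether they are coding lengths is not stated in the sources. The 19854 genes that reached 1 FPKM in 3 or more libraries were tested on log2(FPKM + 1) by limma 3.58.1 (R 4.3.3; eBayes with trend), in 1 fit of 9 libraries without a replicate block and with Benjamini-Hochberg adjustment over all tested genes. This scale understates changes of low genes. The rule left out 113 tested genes whose mean reached 1000 FPKM and 49 at 0 in every library of a density. The fit and the recovery were tested on simulated data.

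The members and the tests were chosen with earlier results of these data known. The named genes are the member with the largest fall and the one with the highest mean FPKM. Alternatives were another pseudocount, filters, scalings, a replicate block, limma-voom on recovered reads, fits on pairs of groups, a stricter threshold and the removal of single libraries. The authors' scaling differs from total reads by 0.972 to 1.042 times.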

Additional observations from a re-analysis of the deposited data

How the results depend on the processing

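The number of members depended most on the pseudocount. With 0.1 in place of 1, 195 genes met the rule, 92 of them members, and over the 110 members the medians became 1.76 for CK minus HD, 1.76 for MD minus HD and 0.164 for the SD within a density. A smaller pseudocount raises the differences of low genes by construction. Total-read scaling, which moved the median CK minus HD of all tested genes to -0.08, left 94 genes, 90 of them members. Upper-quartile scaling gave 106, quantile normalization 107 and a filter of 5 FPKM 82. Leaving out single libraries gave 100 to 121 genes, of which 93 to 104 were members, and 5 to 15 members with a consecutive number. All 110 members were called lower in HD than in CK and in MD under every setting run, except that the filter of 5 FPKM left 82 to be tested, all called. The rule demands this fall in the same libraries, so these calls were nearly fixed by the choice and nothing is read from them. The number called different between MD and CK was 25, 14 at an adjusted p under 0.01, 28 with the replicate block, 30 with fits on pairs of groups, 37 with limma-voom on recovered reads and 18 to 27 without single libraries. Equal replicate numbers were not treated as pairs in the main fit, because no label says that they share a plot or day. Deviations from group means correlated by -0.01 to 0.07 for equal numbers and -0.05 to 0.04 for others. Each CK library correlated positively with the MD and HD libraries of equal number, by 0.02 to 0.06. A weak pairing is therefore not excluded. Both named genes kept direction and call in all 76 recomputed fold changes, which include the main fit read at an adjusted p under 0.01. The choice of these genes made that outcome likely in advance. The log2 fold change of Gb_19747 for HD against CK ranged from -4.52, with limma-voom on recovered reads, to -3.25. Low read numbers in HD make the falls of the rarest members uncertain.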
